A study of Mus musculus with 12 samples.

Results

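The 87 genes described here encode the nuclear-encoded machinery of oxidative phosphorylation. They were taken by symbol from the array's platform annotation: every gene starting with Nduf, Uqcr, Atp5 or Cox4 to Cox8, plus Sdha, Sdhb, Sdhc, Sdhd and Cyc1, with pseudogenes left out and only probe sets annotated to 1 symbol used. They are 87 of 11015 genes and 155 of 20523 probe sets. By role, 33 belong to complex I, 4 to complex II, 9 to complex III, 16 to complex IV and 17 to complex V, and 8 are complex I assembly factors of the Ndufaf series. The rule uses no measured value, though it was set with earlier results of these data known.

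Oxidative phosphorylation takes electrons from NADH at complex I and from succinate at complex II, passes them through ubiquinone to complex III, and on by cytochrome c to complex IV, where oxygen is reduced. Complexes I, III and IV pump protons across the inner mitochondrial membrane, and complex V, the ATP synthase, uses the return flow to make ATP. Endothelial cells are known to draw much of their ATP from glycolysis, and in them the respiratory chain also serves redox balance and biosynthesis. ETS-family factors, among them the GABP complex, are known regulators of many nuclear respiratory genes, together with NRF1.

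Aortic endothelial cells of mice aged 4 weeks were cultured and infected with lentivirus, and each RNA sample was run on 1 Affymetrix mouse array. The 4 groups were wild type cells (WT, Ets1+/+; Ets2+/+) and Ets1KO cells (Ets1-/-; Ets2fl/fl), both with an eGFP lentivirus, and Ets2KO cells (Ets1+/+; Ets2fl/fl) and Ets1/2 double null cells (DKO, Ets1-/-; Ets2fl/fl), both with an eGFP-Cre lentivirus. All groups but WT thus carried the floxed Ets2 alleles, and Cre was present wherever Ets2 was to be deleted, so Cre and loss of Ets2 cannot be told apart. There were 3 arrays in each group, but the third column labelled DKO held the average of the other DKO columns (tolerance 0.00001) in 20521 of 20523 probe sets and was left out, which leaves 11 arrays and 2 for DKO. The values are log2 signals, and nothing besides the word biological in the titles says that replicates came from separate mice, so p-values measure the spread between these arrays.

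Several features of the arrays touch every result. The median log2 value over all probe sets was 9.05 to 9.15 in the 9 WT, Ets1KO and Ets2KO arrays and 8.29 to 8.30 in the arrays labelled DKO. The lower medians fall on the DKO label alone. A difference in array processing thus cannot be told apart from genotype in any comparison with these arrays, in any scaling. Each comparison is therefore given on values with the array's own median taken off (relative to array medians), on the deposited values, and after quantile normalization, and a gene is called at an adjusted p below 0.05 in limma's moderated test over all genes. The 4 probe sets of Ets1 disagreed on the DKO label: on the brightest, which was the one tested, the deposited mean was 10.05 in WT, 8.74 in Ets1KO and 10.16 in the arrays labelled DKO. Relative to array medians Ets1KO differed from WT by -1.36 (SE 0.23, limma adjusted p = 0.160), and the arrays labelled DKO lay 2.26 (SE 0.26, limma adjusted p = 0.000622) above Ets1KO. The next brightest read alike (deposited means of 9.82, 8.61 and 9.81), another read 8.30, 7.60 and 7.69, and the last was lowest in the arrays labelled DKO (8.77, 8.26 and 6.77). Ets2 differed between Ets2KO and WT by -0.42 (SE 0.37, limma adjusted p = 0.570), and in the arrays labelled DKO it lay 0.98 (limma adjusted p = 0.104) above WT relative to array medians and 0.18 above it as deposited, so that on the tested probe set neither scaling showed a lower Ets2 signal there. Xist was low and Eif2s3y high in WT replicate 1 and in all 3 Ets2KO arrays, against the reverse in the other 7. Of 12 endothelial markers 3 were measured: Kdr lay below the array's median in all 11 arrays, Flt1 in 9 and Eng in 6. The 7 fibroblast markers had means of 0.51 to 2.37 above the array median, and the 4 adipocyte markers ranged from -3.20 in Ets1KO replicate 1 to 4.13 in Ets2KO replicate 3. The 11 measured markers of dividing cells had a mean of 2.51 to 2.78 above the array median in WT, -1.65 in Ets2KO replicate 3 against 2.54 and 2.41 in the other Ets2KO arrays, and 2.38 and 1.33 in the arrays labelled DKO (10.68 and 9.62 as deposited, against 11.62 to 11.89 in WT). The part of these markers in the results on the arrays labelled DKO was not tested. No cell type was separated in these RNA samples, so fewer cells of a type and less RNA per cell cannot be told apart.

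The oxidative phosphorylation genes gave bright and steady signals. The tested probe sets of 75 of the 87 lay above the median gene, and those of 62 lay among the brightest 10% of genes, although brightness depends on the probe as well as on the transcript and is not compared between genes below. The median pooled SD between replicates in WT, Ets1KO and Ets2KO was 0.16 log2 units for the members and 0.26 for all genes. The widest spreads were those of Cox7a1 (pooled SD 1.07), Cox6b2 (0.86), Cox7c (0.54) and Ndufs5 (0.48). Others above the median of all genes included Sdhc (0.42), Ndufa6 (0.38), Ndufaf3 (0.33), Ndufaf1 (0.31), Cyc1 (0.31), Ndufv3 (0.31) and Cox7a2l (0.30). Relative to array medians, the median of the 87 was 3.05, 3.11 and 3.34 in the WT arrays. It was 3.23, 3.22 and 3.19 in Ets1KO and 3.16, 3.07 and 3.21 in Ets2KO. In the arrays labelled DKO it was 3.43 and 3.40, above each of the other arrays. As deposited the order was the reverse: the median of the 87 was 11.73 and 11.69 in the arrays labelled DKO, against 12.10 to 12.46 in WT. On these arrays, therefore, the sign of the members' common difference depends on the scaling.

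**Figure D1:**
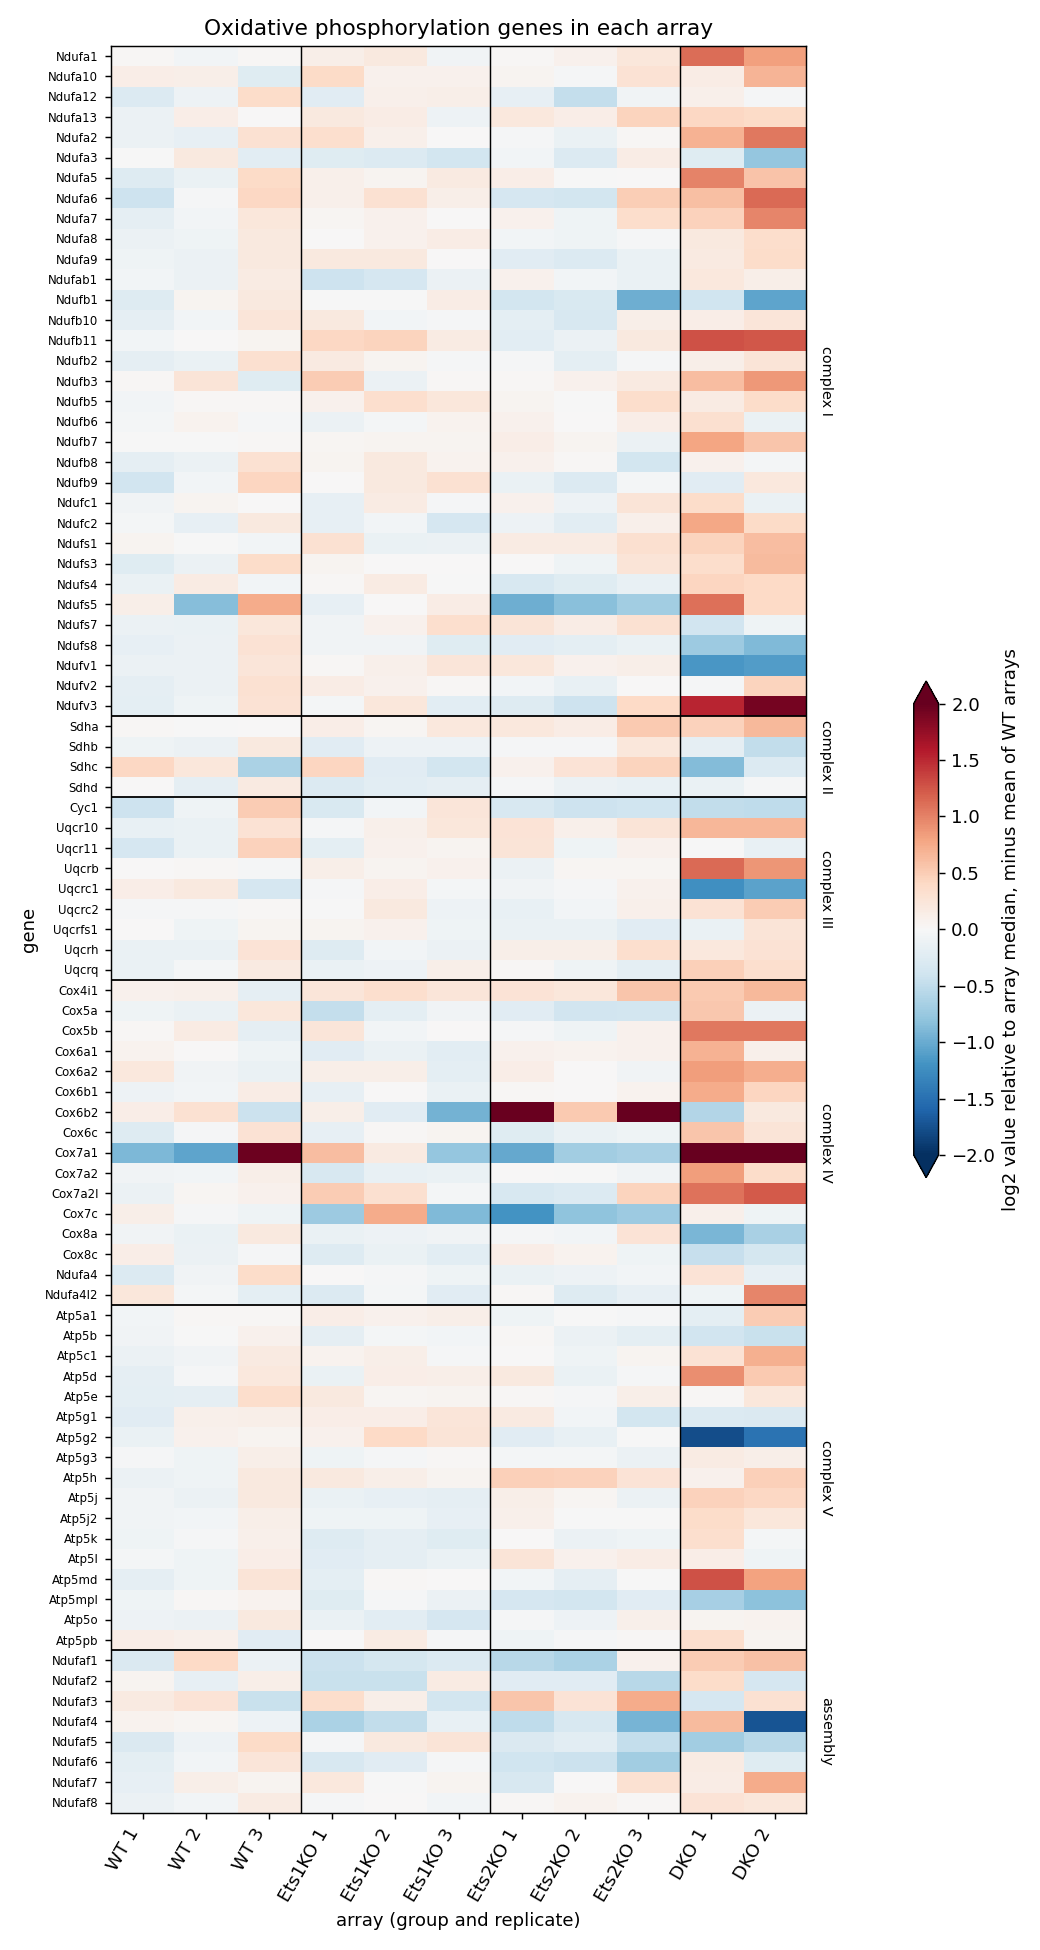
Each row is 1 of the 87 genes, grouped by complex, and each column 1 of the 11 arrays; colour gives the log2 value relative to the array median, minus the mean of the 3 WT arrays, and saturates at 2 in either direction. The Ets1KO and Ets2KO columns are pale for nearly all genes, while the columns labelled DKO hold both dark red rows (Ndufv3, Cox7a1) and dark blue rows (Atp5g2, Ndufv1, Uqcrc1).

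Loss of Ets1 was compared with WT, with the floxed Ets2 alleles on one side only. Xist was high in all Ets1KO arrays and mixed in WT. Neither difference can be told apart from loss of Ets1. None of the 87 members was called in limma's test, in any of the scalings. Over all genes tested, 0.00% were called higher and 0.00908% lower, so few calls of any kind were made in this comparison. At an unadjusted p below 0.05 there was 1 member, or 1.15%, against 8.97% of all genes. The members' differences relative to array medians had a median of 0.02, against -0.03 for all genes, and ran from -0.43 to 0.34. None of the 87 moved by more than 0.5, a size that 15.1% of all genes passed. The respiratory genes thus spread less in this comparison than genes at large, as they did between replicates.

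The members with the smallest p-values in Ets1KO were Ndufb11, Ndufab1 and Cox4i1. Ndufb11, an accessory subunit in the membrane arm of complex I, was at 12.20, 12.35 and 12.38 as deposited in WT and at 12.76, 12.80 and 12.53 in Ets1KO. All Ets1KO arrays lay above all WT arrays, and the fit gave a difference of 0.34 (limma adjusted p = 0.554) relative to array medians. Ndufab1, the mitochondrial acyl carrier protein, was 0.29 lower on its brightest probe set (-0.29, limma adjusted p = 0.583), while its other probe sets gave 0.03 and 0.29. Cox4i1, the widely expressed form of subunit 4 of complex IV, was at 13.26, 13.36 and 13.07 in WT and at 13.51, 13.62 and 13.53 in Ets1KO, a difference of 0.27 (limma adjusted p = 0.587).

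Loss of Ets2 in the presence of Ets1 was compared with WT in the same way, with the Cre lentivirus and the floxed alleles on one side only. Xist was low in all Ets2KO arrays and mixed in WT. None of these differences can be told apart from loss of Ets2. Again none of the 87 members was called in any scaling. Relative to array medians 0.182% of all genes were called higher and 0.154% lower, and the other scalings gave 0.154% and 0.145%. At an unadjusted p below 0.05 there were 8 members, or 9.20%, against 19.0% of all genes. The members' median difference was -0.03, against 0.00 for all genes. More than 0.5 was reached by 8 members (9.20%) and by 26.4% of all genes. By complex, the median was -0.05 for complex I, 0.16 for complex II, -0.01 for complex III, -0.02 for complex IV, -0.03 for complex V and -0.33 for the 8 assembly factors.

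Cox6b2 gave the smallest p-value of a member in Ets2KO. It encodes the form of complex IV subunit 6b that is known mainly from testis. As deposited it was at 6.66, 6.91 and 6.17 in WT, at 6.73, 6.40 and 5.70 in Ets1KO, at 8.54, 7.08 and 9.79 in Ets2KO and at 5.21 and 5.98 in the arrays labelled DKO. Each Ets2KO array lay above each WT array, but the Ets2KO arrays spread over more than the gap, and the difference of 1.91 (SE 0.60) had a limma adjusted p of 0.150. The mean of the 4 measured adipocyte markers of a list of 6 was 10.15, 12.37 and 13.20 in the same Ets2KO arrays. In WT it was 7.81, 7.06 and 11.99. For the 4 measured pericyte markers of a list of 6, the mean was 10.56, 9.38 and 11.42 in Ets2KO. Their WT arrays gave 8.37, 9.62 and 8.43. Of these markers only Rgs5 was higher in each Ets2KO array (13.03, 10.18 and 13.93) than in each WT array (7.45, 7.90 and 6.97). Cspg4, Notch3 and Pdgfrb overlapped between the groups. The part of either list in the Cox6b2 difference was not tested. Atp5h, the d subunit in the stalk of the ATP synthase, was at 13.05, 13.14 and 13.43 in WT and at 13.66, 13.64 and 13.47 in Ets2KO, a difference of 0.41 (limma adjusted p = 0.191). Ndufaf6, a complex I assembly factor, was 0.50 lower (-0.50, limma adjusted p = 0.172). Cox7c and Ndufs5, both small subunits with a wide spread between replicates, had differences of -0.91 and -0.84 and were not called.

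The comparison of the arrays labelled DKO with WT was the first in which members were called. Xist was high in the arrays labelled DKO and mixed in WT, a difference that cannot be told apart from genotype. Relative to array medians, 25 members (28.7%) were called higher and 9 (10.3%) lower by limma, while 19.8% of all genes tested were called higher and 10.6% lower. As deposited, 3 members (3.45%) were called higher and 45 (51.7%) lower, against 2.32% and 43.6% of all genes. After quantile normalization the members divided into 11 higher (12.6%) and 9 lower (10.3%), against 14.4% and 11.6%. The members' shares stood within about 10 percentage points of those of all genes in each scaling, and the members' median difference was 0.25, -0.54 and -0.01, against 0.18, -0.61 and 0.09 for all genes. The shift of the arrays was itself smaller at high signal: comparing the sorted values of the arrays, those labelled DKO lay below WT by an amount given as -0.79 at the 50th percentile, -0.57 at the 90th, -0.53 at the 95th and -0.38 at the 99th. The tested probe sets of the members had a median at the 94.7th percentile of signal among genes, while the sorted values are of all probe sets. Their deposited differences had a median of -0.54 and ran from -2.42 to 2.24. The part of the array shift in these differences was not tested.

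**Figure D2:**
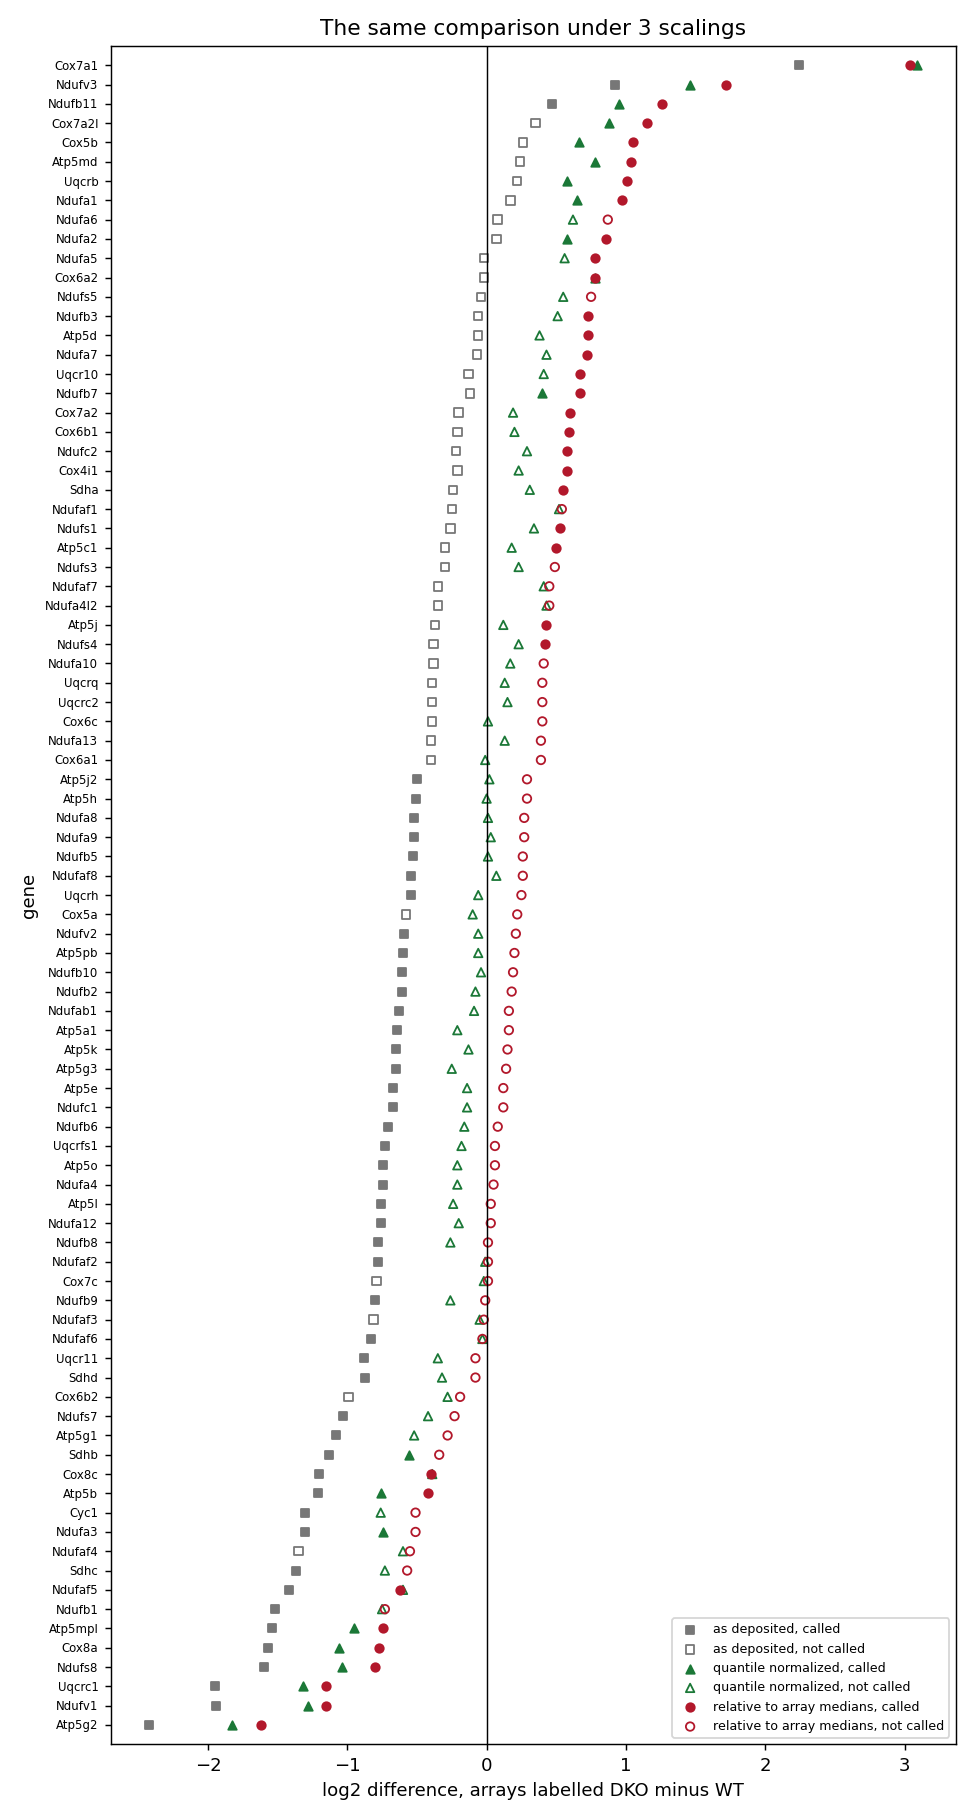
The horizontal axis gives the log2 difference of the arrays labelled DKO (2) from WT (3) for each of the 87 genes under the 3 scalings, with filled symbols for genes called at a limma adjusted p below 0.05. Most genes change side of 0 between the deposited and the median-scaled values, and 10 genes are filled on the same side in all 3.

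Calls that did not depend on the scaling were few. In the comparison with WT, 3 members (3.45%) were called higher in all 3 scalings, where 2.32% of all genes were, and 7 (8.05%) were called lower, where 10.2% were. Called higher were Ndufv3, Ndufb11 and Cox7a1, and called lower were Atp5g2, Uqcrc1, Ndufv1, Ndufs8, Cox8a, Atp5mpl and Atp5b. Against all 3 other groups and in all 3 scalings, Atp5g2, Uqcrc1, Ndufv1, Ndufs8, Cox8a and Atp5mpl fell and Ndufv3 rose. These are 6.90% and 1.15% of the members, and among all genes 6.90% and 0.717% met the same rule, so the share that fell equals the background. They belong to complexes I, III, IV and V, each of which also held members called the other way relative to array medians.

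Because the factors removed bind ETS sites, the promoters of the members were searched for the letters of such sites. RefSeq promoters (GRCm38.p6, from 250 bases before to 50 after the start) were matched for 71 of the 87 genes, giving 76 promoters. On either strand, the ETS core CCGGAAG was in 19 of the 76 (25%), against 17.5% of the promoters of genes on the array and 8.86% of all promoters. The longer CCGGAAGTG, which contains that core and is the form bound by GABP as well, was in 2 (2.63%, against 4.38% and 2.03%). The NRF1 letters GCATGCGC were in 11 (14.5%, against 5.26% and 2.71%), the SP1 letters GGGCGG in 34 (44.7%, against 63.6% and 35.7%) and the YY1 letters AAGATGGCG in 7 (9.21%, against 3.06% and 1.40%). These counts describe letters and not binding, and none of these shares was tested.

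The windows of the last 100 bases before the start are printed, 5′ to 3′ on the gene's strand, for 6 of the 7 members called in all 3 scalings against all 3 groups, because these differences did not turn on the scaling. Capitals mark ETS letters (CCGGAAG or its reverse CTTCCGG) and NRF1 letters (GCATGCGC or its reverse GCGCATGC, overlapping here). Atp5g2 lies at chr15:102671048-102671147, minus strand, Uqcrc1 at chr9:108936548-108936647, plus strand, Ndufv1 at chr19:4012756-4012855, minus strand, Ndufs8 at chr19:3912775-3912874, minus strand, Cox8a at chr19:7217617-7217716, minus strand and Ndufv3 at chr17:31520015-31520114, plus strand.
Atp5g2: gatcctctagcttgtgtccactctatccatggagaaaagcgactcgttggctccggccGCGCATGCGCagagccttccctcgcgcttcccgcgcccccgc
Uqcrc1: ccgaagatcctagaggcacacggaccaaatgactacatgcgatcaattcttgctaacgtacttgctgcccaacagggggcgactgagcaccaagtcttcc
Ndufv1: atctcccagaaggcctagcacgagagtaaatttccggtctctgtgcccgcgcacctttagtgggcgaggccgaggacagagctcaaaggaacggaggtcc
Ndufs8: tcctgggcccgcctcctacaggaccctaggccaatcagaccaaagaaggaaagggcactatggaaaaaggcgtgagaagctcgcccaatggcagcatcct
Cox8a: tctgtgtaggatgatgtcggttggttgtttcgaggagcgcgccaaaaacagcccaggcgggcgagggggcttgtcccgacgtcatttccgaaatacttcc
Ndufv3: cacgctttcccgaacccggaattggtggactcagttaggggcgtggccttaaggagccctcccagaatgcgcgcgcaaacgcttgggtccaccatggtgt
None of the 6 windows holds the complete ETS letters, and only that of Atp5g2 holds the NRF1 letters. In Cox8a the ETS letters begin 5 bases before the start and run across the end of the window. In the wider promoters, Ndufs8 and again Cox8a have the ETS letters and Uqcrc1 the NRF1 letters.

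For contrast, 1 member of each complex with the ETS letters inside the window is printed, to show where the letters lie. Ndufs3 lies at chr2:90904722-90904821, minus strand, Sdhd at chr9:50603850-50603949, minus strand, Uqcrh at chr4:116075071-116075170, minus strand, Cox6b1 at chr7:30626115-30626214, minus strand and Atp5h at chr11:115419920-115420019, minus strand.
Ndufs3: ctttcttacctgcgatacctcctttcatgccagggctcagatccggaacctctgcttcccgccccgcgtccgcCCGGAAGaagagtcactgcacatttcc
Sdhd: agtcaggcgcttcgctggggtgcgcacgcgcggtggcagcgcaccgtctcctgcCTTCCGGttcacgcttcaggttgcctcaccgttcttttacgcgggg
Uqcrh: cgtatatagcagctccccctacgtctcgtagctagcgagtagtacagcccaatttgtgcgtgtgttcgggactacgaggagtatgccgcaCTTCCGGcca
Cox6b1: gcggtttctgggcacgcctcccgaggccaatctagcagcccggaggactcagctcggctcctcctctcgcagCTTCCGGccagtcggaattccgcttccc
Atp5h: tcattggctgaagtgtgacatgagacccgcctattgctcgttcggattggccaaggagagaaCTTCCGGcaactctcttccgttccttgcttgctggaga
The letters begin 27, 46, 10, 28 and 38 bases before the start in the order printed. The differences of these genes from WT in Ets1KO, relative to array medians, were 0.02 for Ndufs3, -0.22 for Sdhd, -0.15 for Uqcrh, -0.09 for Cox6b1 and 0.13 for Atp5h, with none called. Over the 19 members with the ETS letters, the median difference from WT was -0.10 in Ets1KO, 0.04 in Ets2KO and 0.25 in the arrays labelled DKO (-0.54 as deposited). Over the 52 matched members without them it was 0.05, -0.05 and 0.21 (-0.58 as deposited). None of the 71 was called in a single loss, and in the arrays labelled DKO 2 of the 19 and 4 of the 52 were called lower and 0 and 3 higher in all 3 scalings. Of the 11 members with the NRF1 letters 0 were called higher and 3 lower in the arrays labelled DKO relative to array medians (median -0.08, and -0.88 as deposited), and of the 60 without them 20 and 4 (median 0.26, and -0.54 as deposited). The difference between members with and without the letters was not tested.

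In complex I, 11 of the 33 genes were called higher and 2 lower in the arrays labelled DKO against WT relative to array medians, 2 higher and 17 lower as deposited, and 5 higher and 3 lower after quantile normalization. Among all genes, 19.8% were called higher and 10.6% lower relative to array medians, and 2.32% and 43.6% as deposited. After quantile normalization the shares were 14.4% and 11.6%. The same shares apply to the counts for the other complexes and the assembly factors below. Ndufv1 carries the flavin that accepts electrons from NADH. Its signal was 11.50, 11.59 and 11.93 in WT, 11.73, 11.82 and 11.97 in Ets1KO, 11.88, 11.72 and 11.78 in Ets2KO and 9.71 and 9.76 in the arrays labelled DKO. The 9 other arrays did not overlap with the last, and the difference from WT was -1.15 (SE 0.15, limma adjusted p = 0.00123) relative to array medians, -1.94 as deposited and -1.28 after quantile normalization. Its other probe sets gave -0.98 and -0.52 relative to array medians, the same direction.

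Ndufs8, an iron-sulfur subunit that passes electrons towards ubiquinone, was at 12.27, 12.39 and 12.79 in WT, 12.45, 12.46 and 12.29 in Ets1KO, 12.23, 12.26 and 12.34 in Ets2KO and 10.97 and 10.80 in the arrays labelled DKO. The arrays labelled DKO lay below the 9 others. The difference from WT was -0.80 (SE 0.16, limma adjusted p = 0.00666) relative to array medians and -1.60 as deposited, and its 6 probe sets ran from -0.94 to -0.22 relative to array medians. The calls against Ets1KO and Ets2KO were lost without DKO replicate 2, while the call against WT was kept in each of the 11 fits that left out 1 array.

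Ndufv3, an accessory subunit of the same NADH-oxidizing module as Ndufv1, moved the other way. It was at 11.03, 11.21 and 11.58 in WT, 11.27, 11.55 and 11.12 in Ets1KO, 10.99, 10.83 and 11.66 in Ets2KO and 12.01 and 12.38 in the arrays labelled DKO. All 9 others lay below, and the difference from WT was 1.72 (SE 0.27, limma adjusted p = 0.00240) relative to array medians and 0.92 (limma adjusted p = 0.0226) as deposited. Ndufv3 and Ndufv1 thus differed in opposite directions from WT although their proteins sit in one module. Ndufv2, the remaining Ndufv subunit, was not called relative to array medians (0.21, limma adjusted p = 0.425) and was called lower as deposited (-0.59).

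Ndufb11 was at 12.79 and 12.77 in the arrays labelled DKO, against 12.20 to 12.38 in WT, with a difference of 1.26 (SE 0.16, limma adjusted p = 0.00101) relative to array medians and 0.47 as deposited. Against Ets1KO, where it was at 12.53 to 12.80, the deposited difference was 0.08 (limma adjusted p = 0.706), and another of its probe sets gave -0.25 against WT as deposited, where the remaining ones gave 0.47 and 0.52. Ndufa1, an accessory subunit needed for assembly of the membrane arm, was called higher relative to array medians (0.97, limma adjusted p = 0.00197) and after quantile normalization (0.65), but not as deposited (0.17, limma adjusted p = 0.353). Ndufa2, in the NADH-oxidizing module, followed the same pattern with 0.86, 0.58 and 0.07, and its call relative to array medians was lost without DKO replicate 2. The other complex I genes called higher relative to array medians had differences of 0.42 (Ndufs4) to 0.78 (Ndufa5), with calls kept in 2 and 8 of 11 fits that left out 1 array (for Ndufa5 lost without WT 1, WT 2 or DKO 1, and for Ndufs4 kept only without WT 2 or Ets2KO 3).

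**Figure D3:**
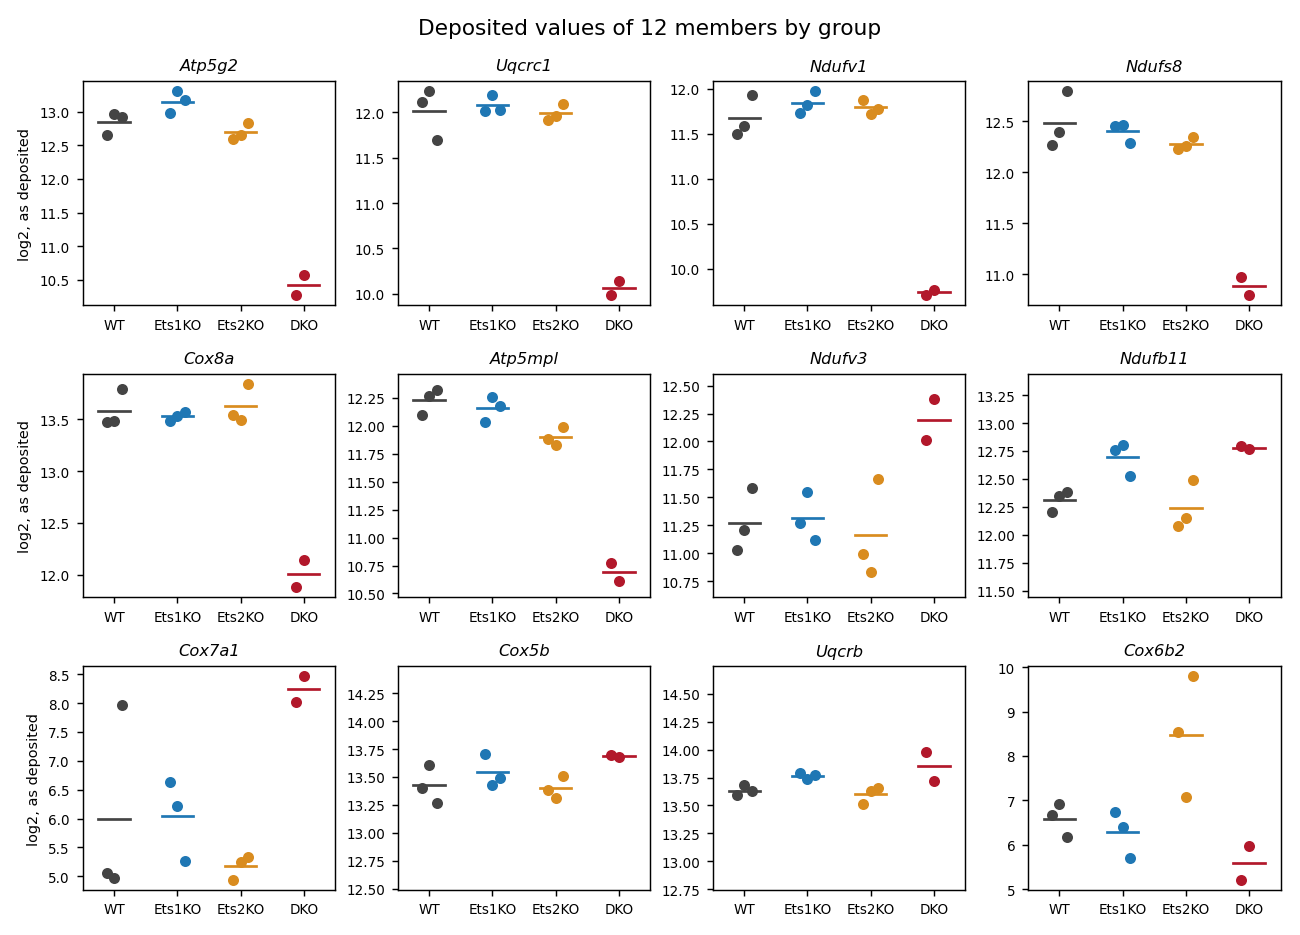
Each panel shows 1 gene with its own vertical scale, giving the deposited log2 value of each array as a point and the group mean as a line (3 arrays for WT, Ets1KO and Ets2KO, 2 for DKO). In the first 6 panels both points labelled DKO lie below the other 9; in the Ndufv3 and Cox7a1 panels they lie above, and in the Cox6b2 panel the Ets2KO points are the most spread.

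Complex II feeds electrons from succinate, and relative to array medians its 4 subunits did not share a direction, while as deposited all 4 lay below WT in the arrays labelled DKO and 3 were called. Sdha, the flavoprotein, was at 11.61, 11.65 and 11.65 in WT and at 11.30 and 11.49 in the arrays labelled DKO, and was called higher relative to array medians (0.55, SE 0.15, limma adjusted p = 0.0207) but not as deposited, where the sign was opposite (-0.24, limma adjusted p = 0.212). Sdhb, the iron-sulfur subunit, was at 11.98, 12.01 and 12.32 in WT and at 11.13 and 10.81 in the arrays labelled DKO, a difference of -0.34 (limma adjusted p = 0.142) relative to array medians, -1.13 as deposited and -0.56 after quantile normalization, called in the last 2. The membrane anchors were called lower only as deposited: Sdhc gave -0.57 (limma adjusted p = 0.248) relative to array medians and -1.37 as deposited, and Sdhd gave -0.08 (limma adjusted p = 0.695) and -0.87. The Sdha call was lost without WT replicate 2 or DKO replicate 2. In Ets1KO and Ets2KO the 4 genes stayed within 0.29 of WT relative to array medians.

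In complex III, 2 of 9 genes were called higher and 1 lower relative to array medians, 0 and 5 as deposited, and 1 and 1 after quantile normalization. Uqcrc1, a core protein of the complex, was at 12.11, 12.23 and 11.70 in WT, 12.02, 12.19 and 12.03 in Ets1KO, 11.92, 11.96 and 12.09 in Ets2KO and 9.99 and 10.14 in the arrays labelled DKO. The latter lay below all others, and the difference was -1.15 (SE 0.17, limma adjusted p = 0.00210) from WT relative to array medians and -1.95 as deposited. Its partner Uqcrc2 was not called in either (0.40 and -0.39). Uqcrb, the ubiquinone-binding subunit, was at 13.59, 13.68 and 13.63 in WT and at 13.98 and 13.72 in the arrays labelled DKO, above WT in both, with a difference of 1.01 (SE 0.12, limma adjusted p = 0.000965) relative to array medians and 0.22 (limma adjusted p = 0.183) as deposited. Cyc1, which holds the haem of cytochrome c1, differed by -0.51 (limma adjusted p = 0.164) relative to array medians and was called lower as deposited (-1.30).

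In complex IV, 7 of 16 genes were called higher and 2 lower relative to array medians, 1 and 3 as deposited, and 4 and 1 after quantile normalization. Cox8a, the widely expressed form of the smallest subunit, was at 13.47, 13.48 and 13.79 in WT, 13.48, 13.53 and 13.57 in Ets1KO, 13.54, 13.49 and 13.84 in Ets2KO and 11.88 and 12.14 in the arrays labelled DKO. No other array came near the last values, and the difference from WT was -0.77 (SE 0.16, limma adjusted p = 0.00731) relative to array medians, -1.57 as deposited and -0.68 on its second probe set; against Ets1KO the call was lost without DKO replicate 1. Cox5b, a zinc-binding subunit, was at 13.40, 13.61 and 13.27 in WT and at 13.70 and 13.68 in the arrays labelled DKO, called higher relative to array medians (1.05, SE 0.15, limma adjusted p = 0.00165) and not as deposited (0.26, limma adjusted p = 0.185). Its 5 probe sets agreed to between 0.92 and 1.05.

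Cox7a1, the form of subunit 7a known from heart and skeletal muscle, had the numerically largest difference of any member, on a probe set at the 0.79th percentile of signal among genes, and no detection calls were used here to tell such low values from background. It was at 5.05, 4.97 and 7.97 in WT, 6.64, 6.22 and 5.27 in Ets1KO, 4.94, 5.25 and 5.33 in Ets2KO and 8.01 and 8.46 in the arrays labelled DKO. WT replicate 3 stood close to the arrays labelled DKO, and the difference from WT was 3.04 (SE 0.80, limma adjusted p = 0.0205) relative to array medians, 2.24 as deposited and 3.09 after quantile normalization. That call was lost without WT replicate 1, WT replicate 2, DKO replicate 1 or DKO replicate 2, and leaving out 1 array moved the difference between 2.51 and 4.02. In WT replicate 3 the mean of the 4 adipocyte markers was 11.99 against 7.81 and 7.06 in the other WT arrays. It was 5.92, 6.28 and 6.15 in Ets1KO, 10.15, 12.37 and 13.20 in Ets2KO, and 8.93 and 6.03 in the arrays labelled DKO. The part of this mean in the Cox7a1 values was not tested. None of the 12 striated muscle markers was measured on a probe set used here.

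The complex IV subunits with tissue-specific forms are shown together because each set encodes alternatives for one position. Cox6a1, the form found in most tissues, lay at 13.73 and 13.13 in the arrays labelled DKO against 13.78 to 13.86 in WT, and was not called in any scaling (0.39 relative to array medians, -0.40 as deposited). Cox6a2, the muscle form, was at 7.87, 7.65 and 7.59 in WT and 7.74 and 7.64 in the arrays labelled DKO, overlapping as deposited (-0.02), and was called higher relative to array medians (0.78, limma adjusted p = 0.00710). Cox6b1, with a call lost without DKO replicate 1, differed by 0.59 (limma adjusted p = 0.0145) relative to array medians and, as deposited, by -0.21. Cox6b2 was called lower in the arrays labelled DKO against Ets2KO in all 3 scalings (-2.10, SE 0.67, limma adjusted p = 0.0399 relative to array medians), but not against WT (-0.19). Its call against Ets2KO was kept in 3 of 11 fits that left out 1 array (lost without WT 1 or 2, Ets1KO 1 or 2, Ets2KO 1 or 3, or either DKO array; -2.79 to -1.45), and its probe set is dim, at the percentile 6.02.

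For subunit 7a, Cox7a2, with a call lost without WT replicate 1, WT replicate 2 or DKO replicate 1, differed from WT by 0.60 (limma adjusted p = 0.0213) relative to array medians and, as deposited, by -0.20. Cox7a2l, a relative that helps join complexes III and IV into supercomplexes, was at 11.69, 11.93 and 11.96 in WT and 12.15 and 12.29 in the arrays labelled DKO, above WT in both arrays. Its difference was 1.15 (SE 0.25, limma adjusted p = 0.00887) relative to array medians and 0.35 (limma adjusted p = 0.277) as deposited, with a call that was lost without DKO replicate 2. Cox8c, a form known from testis, differed by -0.40 (limma adjusted p = 0.0478) relative to array medians and -1.20 as deposited; its second probe set gave 0.12 relative to array medians, and the call was kept only without Ets2KO replicate 3 among the 11 fits that left out 1 array. Cox4i1, with a call lost without DKO replicate 2, differed by 0.58 (limma adjusted p = 0.0185) relative to array medians and -0.21 as deposited. Ndufa4, now counted with complex IV, differed by 0.05 and was called lower as deposited (-0.74), and its hypoxia-inducible relative Ndufa4l2 was at 6.72 and 7.78 in the arrays labelled DKO, on either side of the WT values of 7.43 to 7.77. Cox4i2 and Cox8b were not analysed here.

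**Figure D4:**
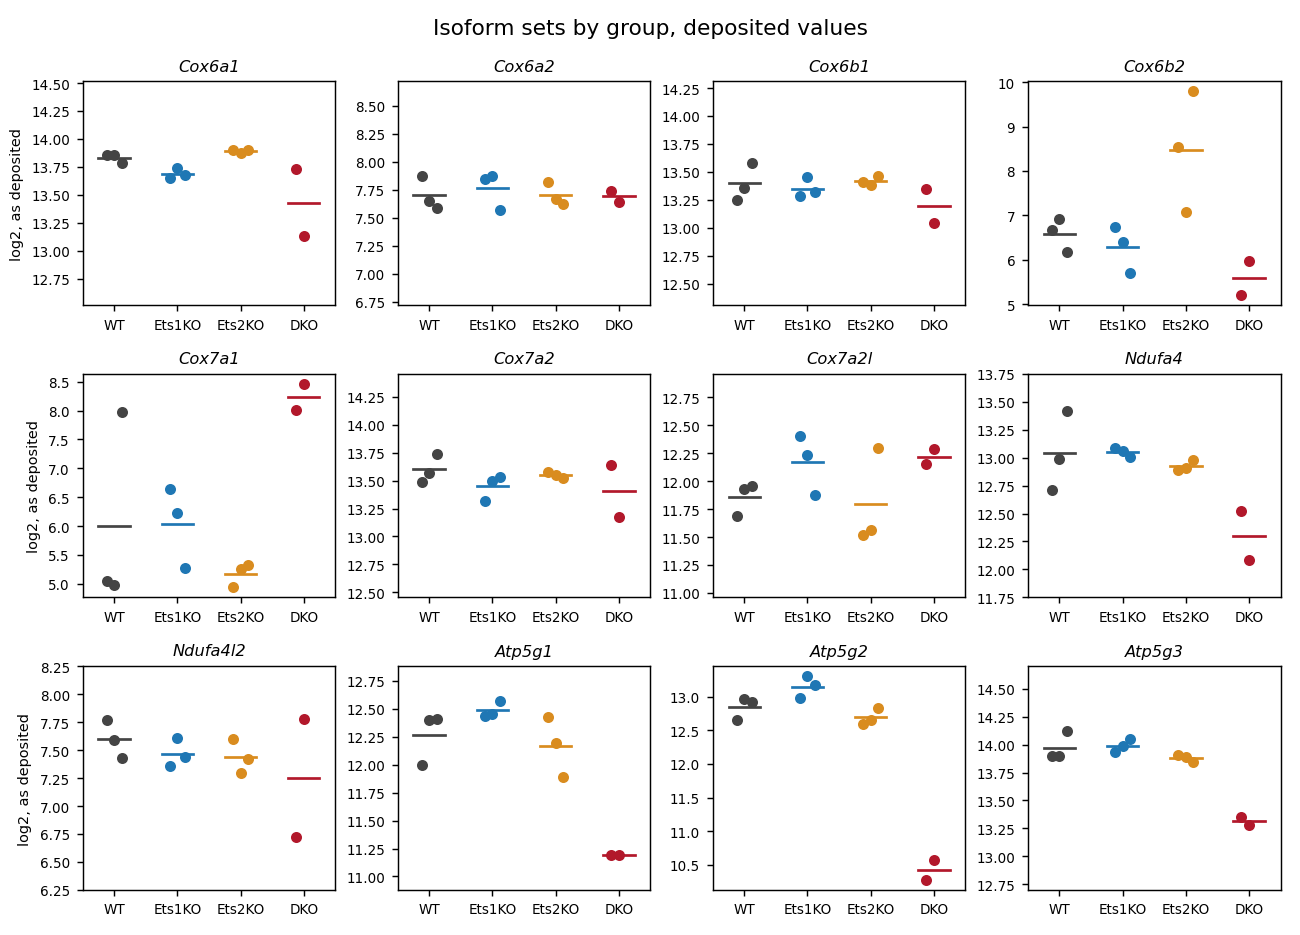
Panels give the deposited log2 value of each array (points) and group means (lines) for alternative forms of complex IV subunits and for the 3 genes of ATP synthase subunit c, each with its own vertical scale. Within the subunit c set, both DKO points of Atp5g1, Atp5g2 and Atp5g3 lie below all others, with the widest gap in Atp5g2.

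In complex V, 4 of 17 genes were called higher and 3 lower relative to array medians, 0 and 13 as deposited, and 1 and 3 after quantile normalization. Atp5g1, Atp5g2 and Atp5g3 encode the same mature subunit c, the protein of the rotating membrane ring. Atp5g2 was at 12.66, 12.96 and 12.92 in WT, 12.98, 13.30 and 13.17 in Ets1KO, 12.60, 12.66 and 12.83 in Ets2KO and 10.28 and 10.58 in the arrays labelled DKO. The gap to the nearest other array exceeded the whole range of the others, and the difference from WT was -1.62 (SE 0.16, limma adjusted p = 0.000328) relative to array medians, -2.42 as deposited and -1.83 after quantile normalization. A second, dim probe set of Atp5g2 gave -0.17 relative to array medians. Atp5g1 was at 11.19 in both arrays labelled DKO against 12.27 ± 0.23 (SD, n = 3) in WT, a difference of -0.28 (limma adjusted p = 0.263) relative to array medians and -1.08 as deposited. Atp5g3 was at 13.35 and 13.28 against 13.90 to 14.12, a difference of 0.14 (limma adjusted p = 0.407) and -0.65. The difference between the 3 genes was not tested.

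Atp5mpl, a small membrane protein of the synthase, was at 12.10, 12.27 and 12.32 in WT, 12.03, 12.26 and 12.18 in Ets1KO, 11.88, 11.83 and 11.99 in Ets2KO and 10.77 and 10.61 in the arrays labelled DKO. The last lay below all others, and the difference was -0.74 (SE 0.13, limma adjusted p = 0.00355) from WT relative to array medians and -1.54 as deposited; the smaller difference from Ets2KO (-0.44, limma adjusted p = 0.0298) lost its call without any 1 of the Ets2KO or DKO arrays. Atp5md, another small membrane subunit, had a deposited mean of 11.73 ± 0.25 (SD, n = 3) in WT and was at 12.22 and 11.73 in the arrays labelled DKO, overlapping with WT (0.24) and called higher relative to array medians (1.04, SE 0.19, limma adjusted p = 0.00429). Atp5b, the catalytic beta subunit, was at 13.83, 13.96 and 14.06 in WT and 12.77 and 12.71 in the arrays labelled DKO, a difference of -0.42 (limma adjusted p = 0.0348) relative to array medians and -1.21 as deposited. The median-scaled call of Atp5b was kept in 3 of 11 fits that left out 1 array, and was lost without any 1 of the WT or DKO arrays, Ets1KO replicates 2 and 3 or Ets2KO replicate 2. Atp5a1, the partner of Atp5b in the catalytic head, was not called relative to array medians (0.16, limma adjusted p = 0.546) and was called lower as deposited (-0.64).

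Of the 8 assembly factors, 1 was called in the arrays labelled DKO against WT relative to array medians, 4 as deposited and none after quantile normalization. Ndufaf5, which modifies a complex I subunit during assembly, was at 8.61, 8.86 and 9.35 in WT and 7.46 and 7.58 in the arrays labelled DKO, a difference of -0.62 (SE 0.20, limma adjusted p = 0.0448). That call was kept in 2 of 11 fits that left out 1 array, those without WT replicate 1 or Ets2KO replicate 3. Ndufaf4 was at 9.84 and 7.48 in the 2 arrays labelled DKO, the first inside and the second below the range of the other 9 arrays, and was not called (-0.55). Ndufaf1, which acts early in building the membrane arm, was at 8.60 and 8.67 in the arrays labelled DKO, inside the WT range of 8.55 to 9.32. Relative to array medians it differed from WT by 0.54 (as deposited by -0.25) and was not called, and was called higher against Ets1KO (0.89, limma adjusted p = 0.0273) and Ets2KO (0.90, limma adjusted p = 0.0258), calls that were both lost without either DKO array and also without any 1 of the Ets1KO arrays, or Ets2KO replicate 1 or 2, respectively.

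The arrays labelled DKO were also set against each single loss, the comparisons that ask what removing the second factor adds. These share the 2 arrays labelled DKO with the comparison above, so that their likeness is no independent support. Xist was low and Eif2s3y high in all Ets2KO arrays, with the reverse in Ets1KO and in the arrays labelled DKO. Against Ets2KO this split cannot be told apart from loss of Ets1. Relative to array medians, the X-linked Ndufb11 and Ndufa1 differed by 1.31 and 0.85 from Ets2KO, and by 0.93 and 0.88 from Ets1KO. The part of the split in the calls was not tested. Against Ets1KO, 24 members (27.6%) were called higher and 8 (9.20%) lower relative to array medians, where 21.6% and 9.94% of all genes were. As deposited there were 1 and 49, against 1.72% and 42.8% of all genes, and after quantile normalization 9 and 10, against 14.5% and 11.2%. In this comparison 1 member was called higher in one scaling and lower in another. Against Ets2KO, 27 members (31.0%) were called higher and 8 (9.20%) lower relative to array medians, where 20.0% and 12.1% of all genes were. As deposited there were 3 and 45, against 3.0% and 43.3%, and after quantile normalization 13 and 12, against 15.2% and 13.1%. Called in all 3 scalings were 1 member higher and 7 lower against Ets1KO (1.72% and 9.67% of all genes) and 3 higher and 8 lower against Ets2KO (3.0% and 11.8%).

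The members with the largest differences were largely those named above. Against Ets1KO, relative to array medians, Cox7a1 differed by 3.04 (limma adjusted p = 0.0197), Ndufv3 by 1.73 and Atp5md by 1.09, and Atp5g2 by -1.88 (limma adjusted p = 0.000160), Ndufv1 by -1.26 and Uqcrc1 by -1.17. Against Ets2KO, Cox7a1 differed by 3.84 (limma adjusted p = 0.00753), Ndufv3 by 1.81 and Ndufs5 by 1.59, and Cox6b2 by -2.10, Atp5g2 by -1.50 and Ndufv1 by -1.29. Ndufs5 was at 9.87, 9.99 and 10.15 in Ets2KO and at 11.17 and 10.46 in the arrays labelled DKO, with WT at 10.93, 10.03 and 11.62. Its difference from Ets2KO was called relative to array medians (limma adjusted p = 0.0164) and after quantile normalization (1.37), was lost without DKO replicate 1, and was not made as deposited (0.81, limma adjusted p = 0.125). The Cox7a1 call against Ets1KO was lost without Ets1KO replicate 3, DKO replicate 1 or DKO replicate 2 and, as deposited, was not made (2.20, limma adjusted p = 0.0523), while that against Ets2KO was kept in all 11 fits that left out 1 array.

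The interaction asks whether loss of Ets2 had another effect in cells labelled Ets1 null than in cells with Ets1. Its sides are not alike, because Ets2KO and WT also differ in the floxed alleles, which DKO and Ets1KO share. Xist was high in the Ets1KO arrays and those labelled DKO, low in Ets2KO and mixed in WT. These differences cannot be told apart from the interaction. Relative to array medians, 12 members (13.8%) had a positive and 4 (4.60%) a negative interaction called by limma, against 9.84% and 6.45% of all genes. As deposited the counts were 0 and 33, against 1.51% and 30.1% of all genes, and after quantile normalization 3 and 5, against 6.23% and 7.01%. The members called in all 3 scalings were 0 positive, where 1.49% of all genes were, and 4 negative, where 6.22% were. The 4 were Atp5g2 (-1.75, SE 0.21, limma adjusted p = 0.00198), Ndufv1 (-1.40, SE 0.20, limma adjusted p = 0.00358), Uqcrc1 (-1.17, SE 0.23, limma adjusted p = 0.0128) and Cox8a (-0.75, SE 0.21, limma adjusted p = 0.0454), with values relative to array medians. The largest positive values were those of Cox7a1 (3.84, SE 1.08), Ndufv3 (1.82, SE 0.36) and Ndufaf1 (1.25, SE 0.34). Leaving out 1 array ended the call of Cox7a1 in 8 of 11 fits (without any 1 of the Ets1KO, Ets2KO or DKO arrays) and that of Ndufaf1 in 9 (all but WT replicate 1 and Ets2KO replicate 3), while Ndufv3 kept it in all 11. Of the negative ones Atp5g2, Ndufv1 and Uqcrc1 kept their calls in all 11, and Cox8a in 2 (without WT replicate 3 or DKO replicate 2).

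Different probe sets of one gene gave unlike answers more often in the arrays labelled DKO than in the single losses. Of the 87 genes, 47 have more than 1 probe set. The range between a gene's probe sets in the difference from WT had a median of 0.07 in Ets1KO, 0.07 in Ets2KO and 0.39 in the arrays labelled DKO, relative to array medians. In the arrays labelled DKO 14 of the 47 had probe sets of opposite sign. The widest was Atp5d, the delta subunit of the central stalk: its tested probe set gave 0.73 (limma adjusted p = 0.0179, lost without WT replicate 1 or DKO replicate 1, and -0.06 as deposited) and the other -2.22, from deposited means of 12.69 in WT and 9.68 in the arrays labelled DKO. Ndufc2, a membrane-arm subunit, gave 0.58, 0.06 and -0.75. Of the tested probe sets, 11 are of the type whose probes also match other transcripts of a family (ending in _s_at) and 4 of the type with probes of mixed specificity (ending in _x_at), Cox5b and Cox8a among them, so related sequences such as processed pseudogenes can share in those signals.

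**Figure D5:**
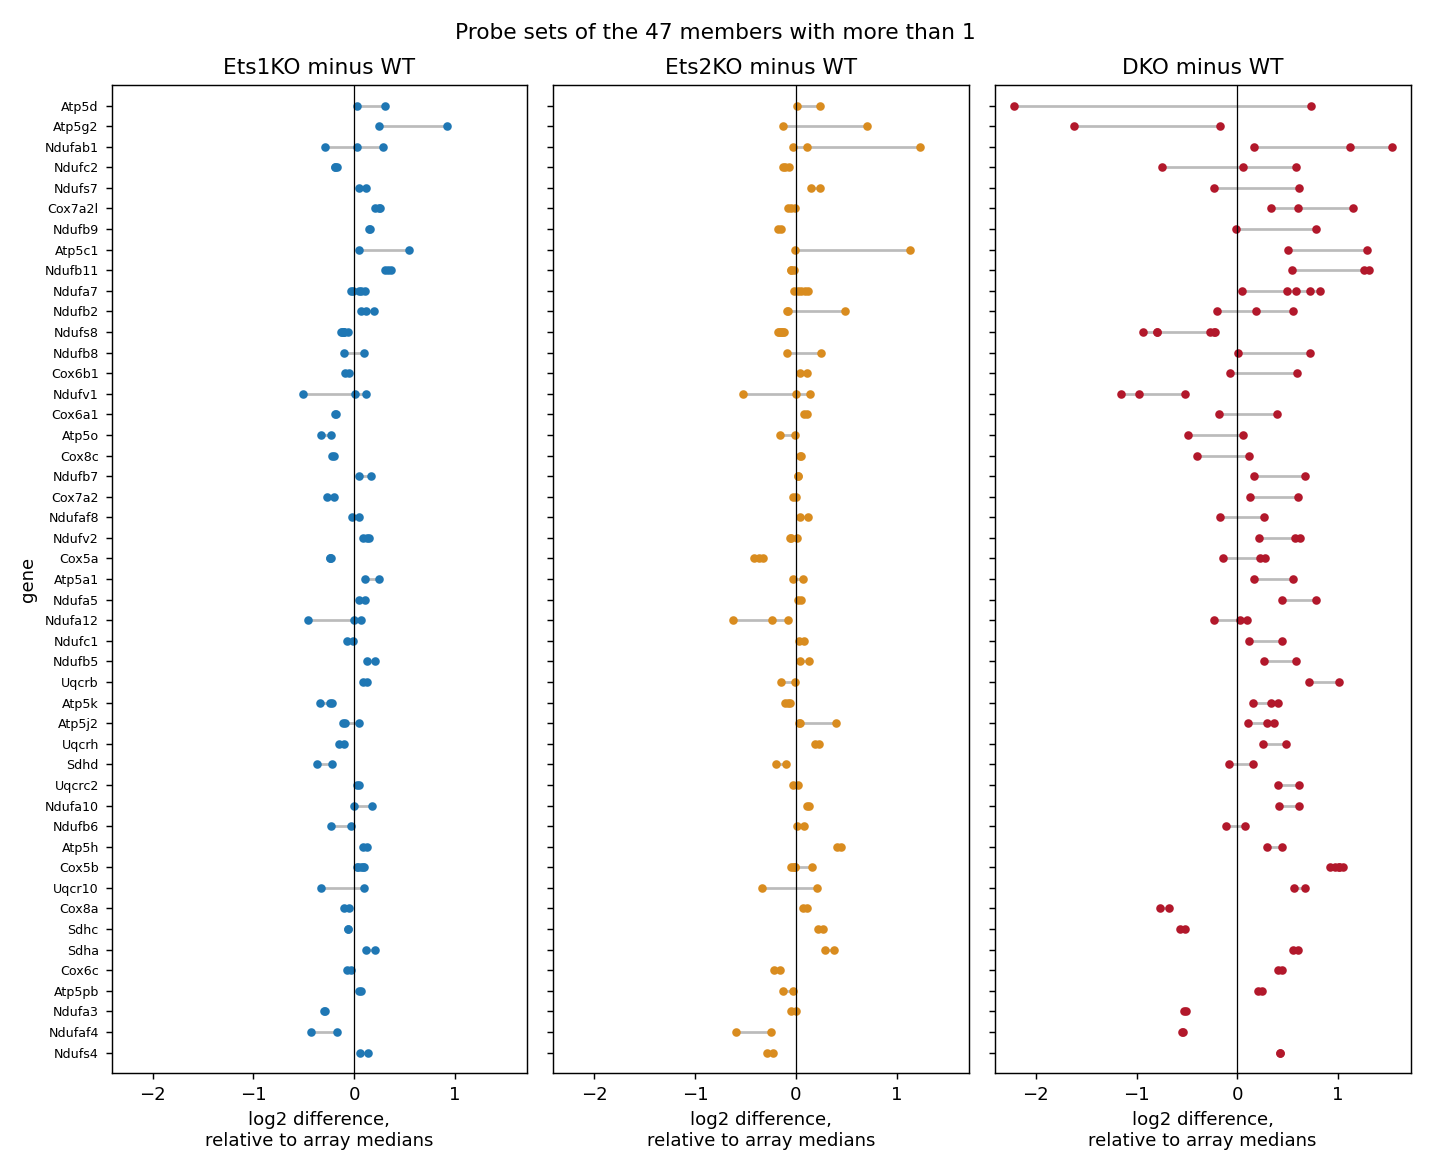
Points are the probe sets of each of the 47 genes with more than 1, joined by a line, and the horizontal axes give the log2 difference from WT relative to array medians in Ets1KO, Ets2KO and the arrays labelled DKO. The lines are short in the first 2 panels (median range 0.07) and longer in the third (0.39), where Atp5d runs from -2.22 to 0.73.

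Genes around the respiratory chain were read from lists of the pathway. In Ets1KO and Ets2KO no gene of these lists was called against WT. The list counts below stand beside the shares of all genes called in the arrays labelled DKO against WT. These were 19.8% higher and 10.6% lower relative to array medians, and 2.32% and 43.6% as deposited. After quantile normalization they were 14.4% and 11.6%. No list was tested against these shares. In the arrays labelled DKO against WT, 12 of 38 measured assembly genes outside the Ndufaf series were called higher and 5 lower relative to array medians, 0 and 17 as deposited, and 9 and 4 after quantile normalization. Tmem126b, a complex I assembly factor, differed by -1.74 (limma adjusted p = 0.00383), and Cox10, which makes the haem of complex IV, by -1.02 (limma adjusted p = 0.00539), both lower in all 3 scalings. Cox17, which carries copper to complex IV, differed by 1.16 (limma adjusted p = 0.00152) relative to array medians and was not called as deposited.

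Of 15 measured regulators of respiratory genes, 2 were called higher and 2 lower relative to array medians, 1 and 8 as deposited, and 1 and 2 after quantile normalization. Pprc1, a coactivator related to PGC-1, differed by -1.76 (limma adjusted p = 0.00364), and Polrmt, the mitochondrial RNA polymerase, by -0.81 (limma adjusted p = 0.0228), both called lower in all 3 scalings. Tfb1m, which modifies mitochondrial ribosomal RNA, differed by 1.71 (limma adjusted p = 0.00123), called higher in all 3. Gabpa, the ETS subunit of GABP, differed by -0.14 (limma adjusted p = 0.625), and Tfam, which packages mitochondrial DNA, by -0.08 (limma adjusted p = 0.798), both called lower as deposited alone. Of 18 citric acid cycle genes 3 were called higher and 1 lower relative to array medians (0 and 11 as deposited, 1 and 2 after quantile normalization), and Ogdh, a subunit of the oxoglutarate dehydrogenase complex, fell in all 3 scalings (-0.83, limma adjusted p = 0.00165, relative to array medians). Of 15 electron carrier genes 2 were called higher and none lower relative to array medians (0 and 9 as deposited, 0 and 0 after quantile normalization), and Cycs, cytochrome c itself, was called lower as deposited alone (-0.69, limma adjusted p = 0.199, relative to array medians). Of 7 carriers 1 was called higher (0 higher and 3 lower as deposited, 1 and 1 after quantile normalization). The single mitochondrially encoded gene measured, ND5, differed by 0.61 (limma adjusted p = 0.0108) relative to array medians and was not called as deposited, where WT lay between 13.75 and 14.02 and the arrays labelled DKO at 13.70 and 13.68, or after quantile normalization.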

How the data were processed

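Affymetrix signals of 4 groups of cultured cells were used as the authors deposited them: log2 values per probe set, made with RMA per the submitters' processing notes (version not given in the sources used here). Depth has no counterpart on arrays; the number of arrays limits the precision. Probe sets were named through the platform annotation (549 with several symbols and 1150 unlisted were not used), with 1 row per gene, the probe set with the highest mean. Symbols were checked in RefSeq (GRCm38.p6, 87 of 87 matched). Titles and genotypes set the groups, against short descriptions that say wild type for Ets1KO and Ets2KO.

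Differences were fitted over all 11015 genes with limma 3.58.1 in R 4.3.3 (4 group means, 11 arrays, 7 residual and 2.13 prior degrees of freedom) after subtracting each array's median, with Benjamini-Hochberg adjustment within each comparison, called at 0.05. The fit was tested on simulated data with 100 genes changed by 1 log2 unit and 100 by 3. Against WT it recovered 43.0% (Ets1KO), 49.0% (Ets2KO) and 41.0% (DKO) of the changes of 1. Of the changes of 3 it recovered 86.0%, 85.0% and 80.0%, with 9, 7 and 3 false calls. Many changes of 1 would thus go uncalled. Alternatives were the deposited values, quantile normalization, the mean of probe sets, genes above the median level, all 12 columns, a replicate block, only the groups compared, leaving out each array and, added after seeing the data, the median of the genes tested. Members, gene lists and motifs were chosen with earlier results of these data known. Named are the 5 largest called differences each way against WT (3 each way otherwise, or the 3 smallest p-values where none was called), isoform sets, complex II and Cyc1, members whose probe sets differ by over 1 both ways (0 did), and up to 4 called genes per list; the other members and genes named, those called in all scalings among them, were chosen after their values were seen. Figures were drawn with matplotlib 3.10.9 in Python 3.11.15.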

Additional observations from a re-analysis of the deposited data

Results flagged for a closer look

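Each of these members was singled out by limma's interaction test relative to array medians. That test compares the effect of Ets2 loss in cells labelled Ets1 null and in cells with Ets1. The floxed alleles and the Xist signal also differ unequally between its sides and cannot be told apart from it. Ndufa1 and Ndufb11 lie on the X chromosome, and the part of this was not tested. Positive interactions were 3.84 for Cox7a1, 1.82 for Ndufv3, 1.25 for Ndufaf1, 1.17 for Atp5md, 1.0 for Cox5b, 0.97 for Ndufb11, 0.94 for Uqcrb, 0.83 for Ndufc2, 0.82 for Cox7a2, 0.77 for Ndufa1, 0.75 for Cox6a2 and 0.60 for Ndufb7. None of these was called as deposited. Negative interactions were -0.75 for Cox8a, -1.17 for Uqcrc1, -1.40 for Ndufv1 and -1.75 for Atp5g2, and these were called as deposited and after quantile normalization too. All rest on the 2 arrays labelled DKO, in which the brightest probe set of Ets1 and that of Ets2 were not below WT, while another of Ets1 was lowest there (6.77 against 8.77 in WT as deposited). Of the 16, 7 kept the call in all 11 fits that left out 1 array: Ndufv3, Cox5b, Ndufb11, Uqcrb, Uqcrc1, Ndufv1 and Atp5g2. Of those fits Atp5md kept it in 10 (lost without DKO 1) and Ndufa1 in 5. Cox7a1 kept it in 3, Ndufaf1, Ndufc2, Cox7a2 and Cox8a in 2, and Cox6a2 and Ndufb7 in 1. Each of these lost it without DKO 1, and all but Atp5md also without Ets2KO 1.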

How the results depend on the processing

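Counts are members called higher or lower. As deposited they changed from 25 to 3 higher and from 9 to 45 lower against WT. Against Ets1KO they changed from 24 to 1 and from 8 to 49, and against Ets2KO from 27 to 3 and from 8 to 45. For the interaction they changed from 12 to 0 and from 4 to 33. The scaling itself moved the median of all genes, from 0.18 to -0.61 against WT and from 0.25 to -0.59 against Ets1KO. Against Ets2KO that median moved from 0.20 to -0.57, and for the interaction from 0.25 to -0.57. Quantile normalization gave 11, 9, 13 and 3 higher. Fitting only the groups compared gave 6 higher and 3 lower against WT and 13 and 4 against Ets2KO, with fewer arrays behind the error. Using all 12 columns gave 21 positive interactions, with a column that is a mean counted as an array. Replicate numbers did not pair the arrays (correlations of deviations -0.32 to 0.10 over 15 pairs, 0 above 0.1); with a replicate block there were 4 lower against Ets2KO and 5 positive interactions, and the other counts stayed within 1.5 times.

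Leaving out 1 array gave 14 to 27 higher and 6 to 10 lower against WT, 13 to 29 and 5 to 9 against Ets1KO, 14 to 29 and 4 to 9 against Ets2KO, and 5 to 13 and 3 to 5 for the interaction; the single losses stayed at 0. Counts moved by over 1.5 times without WT 1, WT 2, DKO 1 or DKO 2 (higher against WT), Ets1KO 2, Ets1KO 3 or DKO 1 (higher against Ets1KO), DKO 2 (lower against Ets1KO), Ets2KO 1, Ets2KO 2 or DKO 1 (higher against Ets2KO), Ets2KO 1 or DKO 2 (lower against Ets2KO), and WT 1, any Ets1KO array, Ets2KO 1, Ets2KO 2 or DKO 1 (positive interactions). Of 34 calls against WT, 14 were kept in all 11 such fits.

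Against WT in the arrays labelled DKO, 33 of the 87 members had 1 sign in all 3 scalings. Of the members named by rule, 12 turned under some setting. As deposited these were, against WT, Cox4i1 (-0.21), Ndufa4 (-0.74), Ndufa4l2 (-0.35), Cox6a1 (-0.40), Cox6a2 (-0.02), Cox6b1 (-0.21), Cox7a2 (-0.20), Atp5g3 (-0.65) and Sdha (-0.24). After quantile normalization they were Ndufa4 (-0.21), Cox6a1 (-0.01) and Atp5g3 (-0.25). Ndufa4 also turned with the median of the genes tested (-0.02, added after seeing the data) and without WT replicate 1 (-0.09) or DKO replicate 1 (-0.16), Ndufa4l2 without DKO replicate 2, Cox6b2 without DKO replicate 1 and Sdhd without WT replicate 3; leaving out 1 array gave -0.16 to 0.27 for Ndufa4, -0.08 to 0.98 for Ndufa4l2, -0.58 to 0.20 for Cox6b2 and -0.17 to 0.01 for Sdhd. With the mean of probe sets, Sdhd (0.04, against WT) and Ndufab1 (0.01, Ets1KO) turned. The cause was not tested.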
